A study of Mus musculus with 37 samples.

Results

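The genes described here are 48 genes of the extracellular matrix and of stromal cells (collagens, laminins, proteoglycans, matricellular proteins, enzymes that process collagen, and receptors and contractile proteins of mesenchymal cells), measured in bone marrow-derived macrophages (BMDMs). They were taken by symbol from a table of 24016 genes, and all 48 were found. The list was selected with measured values of these same libraries known, including the levels, the genotype ratios and the changes after stimulation, so every count over its members is a description and carries no test. Of the 48 members, 44 had a mean of at least 10 reads over the libraries, as did 12721 of all genes, and the ratios below are given for these 44.

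The study asked how the clock transcription factor Bmal1, encoded by Arntl, shapes the inflammatory response of macrophages. BMDMs were grown for 6 days with M-CSF from the marrow of male mice, 6 to 9 weeks old, either wild-type (WT) C57BL/6J or Arntl-/- on a C57BL/6 background, and the libraries of the latter are labelled BmalKO. The study describes the WT mice both as littermates of the Arntl-/- mice and as bought animals, and the sample titles say only WT. The deletion is present in every cell of the animal and not in macrophages alone. Cells were treated with Kdo2-lipid A (KLA), a purified form of the endotoxin core to which the receptor TLR4 responds, and PolyA RNA was sequenced at 0, 6, 24 and 48 h. Each of the 8 conditions, WT or Arntl-/- at each time, had 1 library, and the labels do not say how many mice gave each, so no difference has a replicate check.

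Collagens, laminins, fibronectin and proteoglycans form the scaffold around cells, and the fibrillar collagens give it tensile strength. Fibroblasts, smooth muscle cells and bone marrow stromal cells are the textbook source of most of these proteins, whereas macrophages are better known for degrading and remodeling matrix and for releasing a limited set of matrix proteins such as fibronectin and thrombospondin. Bone marrow cultures start from a mixed population from which adherent macrophages are grown, and RNA of a whole culture cannot tell fewer cells of a type from less RNA per cell.

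The libraries held 8587560 to 27036783 reads on genes, with WT at 6 h the deepest and the 48 h libraries of both genotypes the shallowest. Levels are scaled FPKM, the deposited FPKM (reads per kb of exon per 10000000 reads) divided by size factors of 0.909 to 1.11. Arntl itself was at 32.6 to 39.1 scaled FPKM in WT and 11.4 to 20.4 in Arntl-/- libraries, all lower than WT. Of 13 macrophage markers in the table, all were detected in every library, and their summed level was 20332 to 46550 in WT and 23272 to 42783 in Arntl-/- cells. Of 18 further fibroblast markers, Pdpn, which activated macrophages also express, was at 488 to 836 and made up most of the summed level of 527 to 879. The other 17 were at most 18.8, with Dpt and Meox2 at 0 reads in every library. Of 10 smooth muscle and pericyte markers, 3 passed the read filter, and the summed level of the list was 13.5 to 36.8 in WT and 11.1 to 17.4 in Arntl-/- cells. Myh11, which defines smooth muscle, was at most 1.19. Endothelial markers summed to 111 to 148, bone marrow mesenchymal markers to 18.7 to 35.9, epithelial markers to 0.698 to 7.03, lymphocyte markers to 22.4 to 60.8 and adipocyte markers, through Lpl and Fabp4, which macrophages also express, to 1194 to 2983. The part of any of these cells in the values below was not tested.

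The share of the reads on genes that the members took in WT cells was 0.170% before KLA and 0.220, 0.300 and 0.343% after 6, 24 and 48 h. The corresponding shares in Arntl-/- cells were 0.180, 0.203, 0.289 and 0.348%. Thbs1 and Lox alone made up a large part of this. Summed over the members, the scaled FPKM was 2223, 2619, 3824 and 5269 in WT and 2189, 2566, 3506 and 4826 in Arntl-/- cells in the same order, and without Thbs1 and Lox it was 1553, 1759, 1868 and 3624 and 1218, 1263, 1357 and 2479.6. With or without those genes the sum was thus lower in Arntl-/- cells at every time, and in both genotypes it was highest at 48 h. Thbs1 and Lox themselves were higher in Arntl-/- cells at every time.

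**Figure D1:**
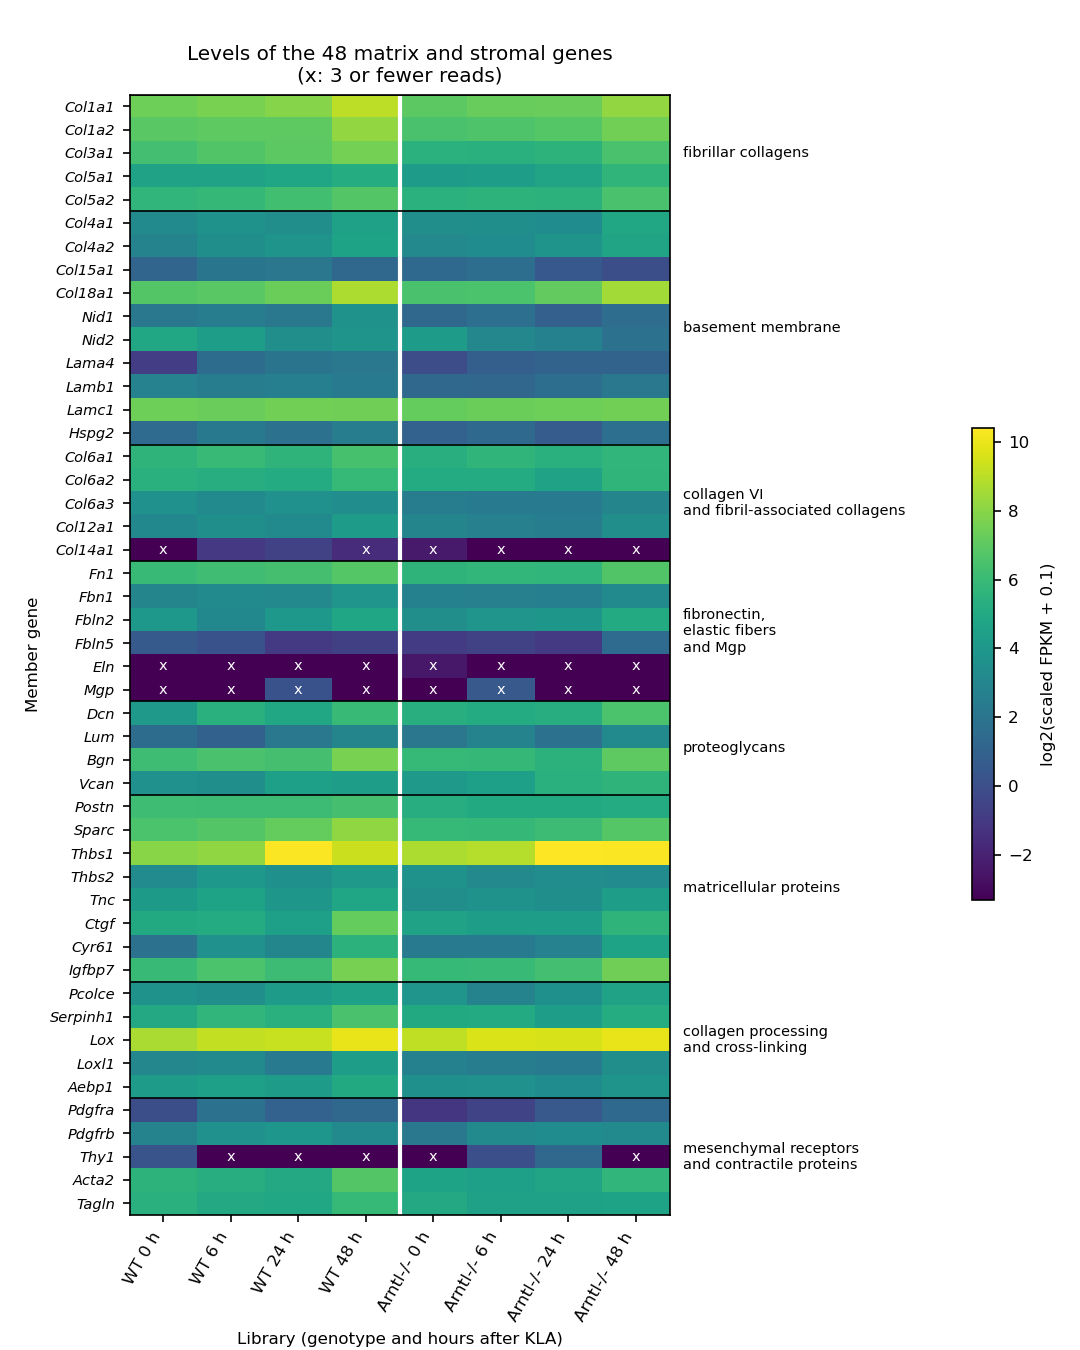
Level of each of the 48 members (rows, grouped by role) in the 8 libraries (columns: WT on the left and Arntl-/- on the right, 0 to 48 h after KLA), as log2(scaled FPKM + 0.1) in color; an x marks values of 3 or fewer reads. Thbs1 and Lox are the brightest rows, and the marks fall in 4 genes, Col14a1, Eln, Mgp and Thy1.

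All values of 3 or fewer reads belonged to the 4 members that missed the read filter. Elastin (Eln), the core of elastic fibers, had 1 read in Arntl-/- cells at 0 h and 0 reads in the other libraries, where 3 reads would correspond to 0.166 to 0.630 scaled FPKM. Mgp, an inhibitor of matrix calcification, had 1 read in WT at 24 h and 2 in Arntl-/- at 6 h. Col14a1, a fibril-associated collagen, had 0, 12, 6 and 2 reads in WT and 2, 0, 0 and 0 in Arntl-/- cells. Thy1, a surface glycoprotein of fibroblasts, T cells and neurons, had 4, 0, 0 and 0 reads in WT and 0, 4, 10 and 0 in Arntl-/- cells.

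To describe the effect of the Arntl deletion, Arntl-/- and WT libraries were compared at each time. Over the 44 members, the log2 of the Arntl-/- level divided by the WT level had a median of -0.32, -0.63, -0.46 and -0.58 for 0, 6, 24 and 48 h, and the medians of all 12721 genes lay between -0.01 and 0.00. At least 1.5-fold lower in Arntl-/- cells were 13 members at 0 h, where 5.21% of all genes were, 23 at 6 h (6.61% of all genes), 18 at 24 h (6.51%) and 22 at 48 h (9.46%). At least 1.5-fold higher were 4 members at 0 h (7.79% of all genes), 4 at 6 h (4.33%), 1 at 24 h (8.66%) and 3 at 48 h (11.3%). Since WT at 6 h is the deepest library, its depth stands beside the 6 h values, and the part of depth in them was not tested. Of 5 neutrophil markers that passed the filter, 4, 4, 2 and 2 were at least 1.5-fold higher in Arntl-/- cells at 0, 6, 24 and 48 h, and their list summed to 533 to 937 in WT and 878 to 1044 in Arntl-/- libraries, and their part was not tested. Of the 6 further fibroblast markers that passed the filter, 1, 0, 2 and 1 were higher and 0, 3, 1 and 2 lower in Arntl-/- cells, with median log2 ratios of 0.09, -0.59, 0.00 and -0.30. The 3 smooth muscle and pericyte markers that passed had medians of 0.37, -0.65, -0.17 and -0.31, with 1, 0, 0 and 1 higher and 1, 2, 1 and 1 lower. The 4 bone marrow mesenchymal markers that passed had medians of 0.27, -0.19, -0.10 and -0.40, with 1 higher at each time and 0, 1, 2 and 2 lower. The medians of these mesenchymal lists were thus above 0 before KLA and below 0 at 6 and 48 h, and their part in the members' ratios was not tested. None of the 13 macrophage markers was 1.5-fold apart between the genotypes at any time, and their median log2 ratios were -0.25, 0.41, -0.16 and -0.02. At 6 h they thus lay on the other side of 0 from the members, and against 0 h the WT library at 6 h had a macrophage marker median of -0.44, with 3 of 13 at least 1.5-fold lower. The Arntl-/- library at 6 h had a median of 0.22, with 0 lower, and the part of these markers was not tested.

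Across the times, 23 members were lower in Arntl-/- than in WT at all 4, whatever the size of the difference (7.19% of all genes), and 3 were higher at all 4, namely Vcan, Thbs1 and Lox (8.25% of all genes). At least 1.5-fold lower at all 4 times were 6 members, Col3a1, Nid1, Nid2, Postn, Sparc and Aebp1 (0.283% of all genes), and 0 were at least 1.5-fold higher at all 4 (0.362%). When the 6 h libraries were set aside, a choice made after seeing the data, 6 members were at least 1.5-fold lower at the other times (0.59% of all genes). In 5 members, Nid1, Lamb1, Col6a3, Postn and Aebp1, each Arntl-/- value lay under all WT values (0.684% of all genes), and in 0 did each lie above all WT values (0.99%).

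**Figure D2:**
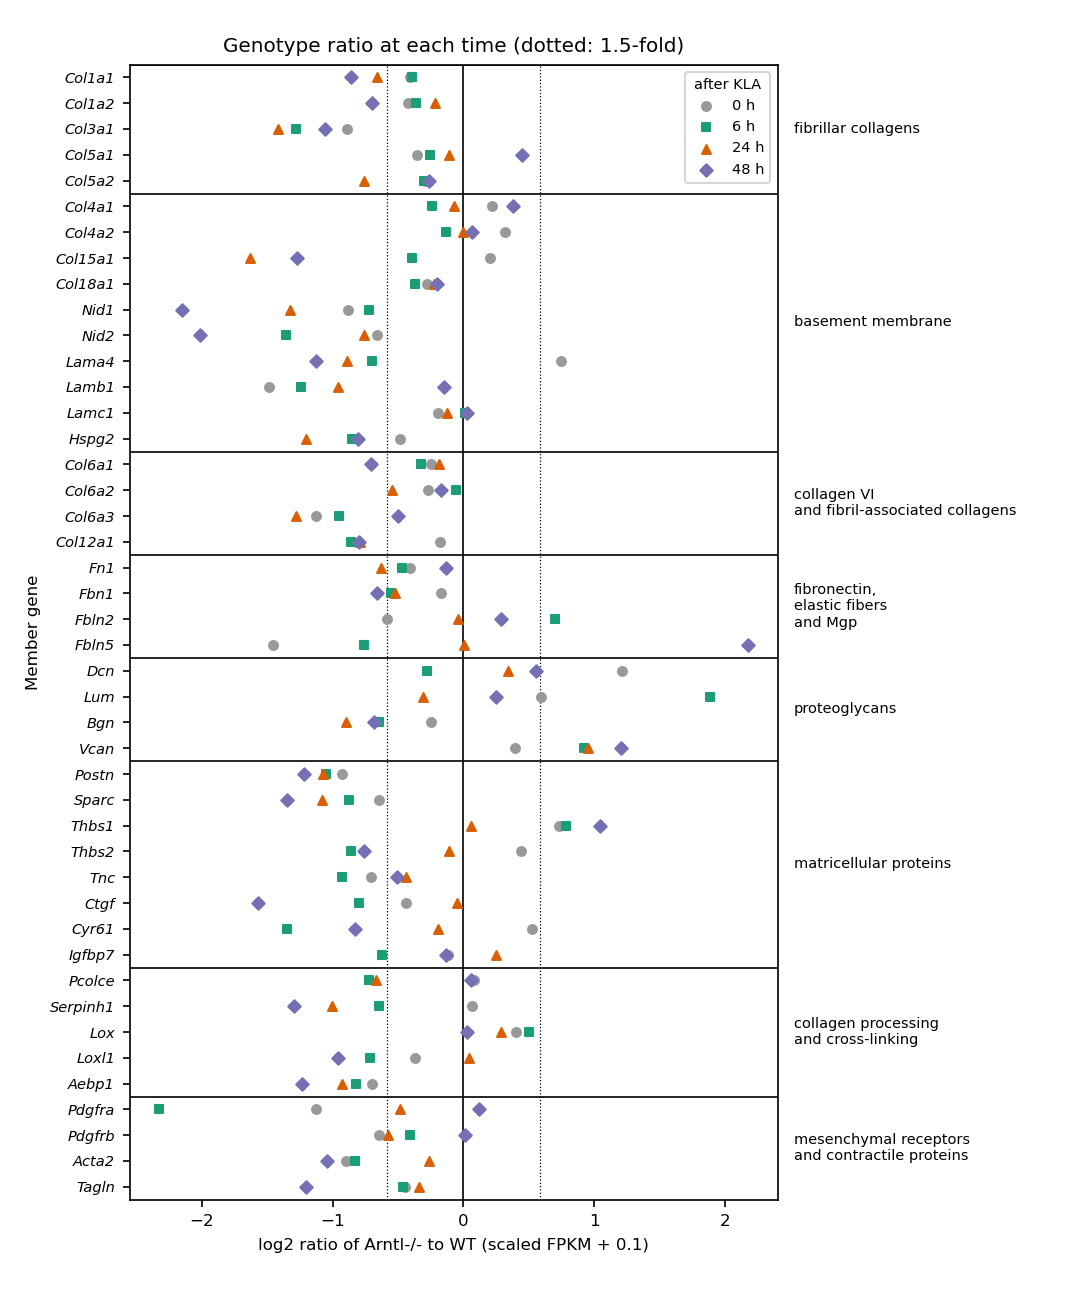
Log2 ratio of Arntl-/- to WT, from scaled FPKM + 0.1, for the 44 members that passed the read filter, grouped by role, with 1 symbol for each time after KLA and dotted lines at 1.5-fold. Most symbols lie left of 0, those of Postn, Sparc and Aebp1 lie beyond the left line at all times, and those of Vcan and Thbs1 lie to the right.

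The fibrillar collagens, which assemble into the fibers of connective tissue, were lower in Arntl-/- cells for all 5 members at 0, 6 and 24 h and for 4 of 5 at 48 h. Col1a1 (chr11:94797584-94813170 of mm9), the main chain of type I collagen, had a scaled FPKM of 168, 201, 245 and 530.2 in the WT libraries of 0, 6, 24 and 48 h, against 127, 153, 155 and 292 in those of Arntl-/- cells. Its partner chain Col1a2 (chr6:4455697-4491543 of mm9) was at 121, 127, 132 and 295 in WT and 90.3, 98.9, 114 and 182 in Arntl-/- cells. Both genes were highest at 48 h in each genotype, and at each time the Arntl-/- library was the lower. Col1a1 was 1.32-fold (1.24 to 1.42) lower in Arntl-/- cells at 0 h and 1.82-fold (1.71 to 1.93) lower at 48 h, where the brackets give the 95% interval from the counting of reads only.

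Col3a1 (chr1:45368383-45406551 of mm9), the chain of type III collagen, was at 81.2, 105, 127 and 189 in WT and 43.8, 43.0, 47.3 and 90.6 in Arntl-/- cells. The 48 h library of Arntl-/- cells reached no more than the range of WT at 0 to 6 h, and the ratio was below 1.5-fold at no time. Col3a1 was lower in Arntl-/- cells by 1.85-fold (1.68 to 2.04) before KLA, by 2.43-fold (2.23 to 2.66) and 2.68-fold (2.43 to 2.95) at 6 and 24 h, and by 2.08-fold (1.89 to 2.29) at 48 h. Col5a1 and Col5a2, the chains of type V collagen that set the width of type I fibers, were at 18.9 to 50.2 and 43.2 to 107. Col5a1 was the fibrillar collagen with a higher level in Arntl-/- cells at 48 h, by 1.36-fold (1.19 to 1.55).

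Levels per length of pairs of members were set against each other within each library. Col1a1 was 1.39 to 1.85 times Col1a2 in WT and 1.36 to 1.60 times in Arntl-/- libraries, where the protein holds 2 chains of the former to 1 of the latter. The ratio of Col1a1 to Col3a1 was 1.92 to 2.81 in WT and 2.89 to 3.56 in Arntl-/- libraries, without overlap. Of the 8 pairs of members computed, the pair Lamc1 and Lamb1 also did not overlap, at 25.2 to 35.4 in WT and 40.1 to 72.3 in Arntl-/- libraries. Lox to Loxl1 was 47.3 to 133 in WT libraries and 85.1 to 158 in Arntl-/- libraries, which overlapped. The share of all pairs of genes without overlap was not computed, so these ranges carry no comparison with other genes.

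Of the 10 basement membrane members, genes for the thin sheet under epithelia and around vessels, muscle and nerve, 3, 5, 6 and 5 were at least 1.5-fold lower in Arntl-/- cells at 0, 6, 24 and 48 h, and 1, 0, 0 and 0 were higher. Of all genes, 5.21, 6.61, 6.51 and 9.46% were lower and 7.79, 4.33, 8.66 and 11.3% higher by as much. Col18a1, a proteoglycan-like collagen whose end fragment is endostatin, was at 109.7, 118, 165 and 422 in WT and 90.2, 91.5, 142 and 366 in Arntl-/- cells. Lamc1, the laminin gamma chain shared by most laminins, was at 167, 159, 180.3 and 178 in WT and 146, 160.1, 166 and 181 in Arntl-/- cells. Col18a1 was thus several times higher at 48 h than at 0 h in both genotypes, while the highest Lamc1 level was only 1.24 times the lowest, the narrowest range of any member that passed the filter.

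The nidogens, which link laminin to collagen IV, had the largest genotype ratios at 48 h among the basement membrane genes. Nid1 (chr13:13529869-13604542 of mm9) was at 4.43, 5.29, 4.51 and 13.1 in WT and 2.36, 3.17, 1.74 and 2.87 in Arntl-/- cells, from 22 to 154 reads. The WT library at 48 h stood above the other WT libraries, and no Arntl-/- library reached the lowest WT value. Nid1 was lower by 4.55-fold (2.85 to 7.57) at 48 h.

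Nid2 (chr14:20570479-20631009 of mm9) was at 30.1, 20.7, 11.2 and 14.0 in WT and 19.0, 8.01, 6.55 and 3.40 in Arntl-/- cells. It ran against the other members, being highest at 0 h in both genotypes and at least 1.5-fold lower at 48 h than at 0 h in both, by 2.15-fold (1.69 to 2.75) in WT and 5.58-fold (3.58 to 9.16) in Arntl-/- cells. The Arntl-/- library was the lower at each time, by 1.59-fold (1.35 to 1.87) at 0 h and 4.13-fold (2.54 to 6.99) at 48 h.

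Lama4 (chr10:38685321-38829994 of mm9), the laminin alpha chain of vessel and muscle basement membranes, was at 0.476, 2.86, 3.82 and 4.41 in WT and 0.862, 1.72, 2.01 and 1.96 in Arntl-/- cells. The value at 0 h rests on 6 reads in WT and 16 in Arntl-/- cells, and all later values were higher than at 0 h in both genotypes. Collagen IV, the network-forming collagen of basement membranes, is made from Col4a1 and Col4a2, whose transcripts start 2 bases apart on opposite strands of chromosome 8. Col4a1 was at 9.44, 13.5, 10.8 and 23.3 in WT and 11.0, 11.5, 10.3 and 30.3 in Arntl-/- cells, and Col4a2 ranged over 7.10 to 26.5. At no time was either of the pair 1.5-fold apart between the genotypes, and across the 8 libraries their log2 levels had a Pearson's r of 0.89. Lamb1 was at 2.22 to 6.64, Hspg2, which encodes perlecan, at 1.49 to 5.54, and Col15a1 at 0.894 to 4.23.

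Collagen VI forms beaded filaments around cells from chains of Col6a1, Col6a2 and Col6a3. Col6a1 was at 48.9, 63.9, 49.0 and 86.5 in WT and 41.1, 51.0, 43.0 and 53.1 in Arntl-/- cells, and Col6a2 was at 42.6, 37.3, 34.7 and 58.3 and 35.2, 35.8, 23.8 and 51.7. For both genes the Arntl-/- library was the lower at each time, and the counting interval of the ratio reached 1 at 24 h for Col6a1 (1.14-fold (0.982 to 1.32)) and at 6 and 48 h for Col6a2. Col6a3, the longest chain, was at 9.35 to 12.4 in WT and 4.78 to 7.62 in Arntl-/- libraries. Col12a1, a collagen of the fibril surface, was at 8.46, 11.4, 9.63 and 19.3 in WT and 7.47, 6.28, 5.54 and 11.1 in Arntl-/- cells, lower by 1.82-fold (1.55 to 2.16) at 6 h and 1.74-fold (1.44 to 2.12) at 48 h.

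Fibronectin (Fn1), an adhesive glycoprotein that macrophages are known to make, was at 64.7, 75.0, 82.5 and 113 in WT and 48.6, 54.0, 53.4 and 103 in Arntl-/- cells. It was lower in Arntl-/- cells at each time, by 1.55-fold (1.42 to 1.69) at 24 h and 1.10-fold (1.01 to 1.20) at 48 h. Fbn1, fibrillin of microfibrils, was at 7.46, 9.25, 8.65 and 14.3 in WT and 6.61, 6.27, 5.99 and 9.04 in Arntl-/- cells. Fbln2, a fibulin that binds fibronectin and elastic fibers, was at 16.3, 8.62, 15.8 and 28.2 in WT and 10.9, 14.1, 15.3 and 34.4 in Arntl-/- cells, with the WT library at 6 h the lowest of all 8. Fbln5 had 4 to 28 reads per library and a scaled FPKM of 0.410 to 2.67.

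Among the proteoglycans, Bgn (biglycan), a small proteoglycan that binds collagen, was at 70.3, 90.3, 83.9 and 205 in WT and 59.3, 57.6, 45.1 and 128 in Arntl-/- cells. Dcn (decorin), a relative of biglycan that also binds collagen fibrils, was at 17.0, 42.4, 29.6 and 63.0 in WT and 39.5, 35.0, 37.4 and 92.2 in Arntl-/- cells. Bgn was lower in Arntl-/- cells at each time, whereas Dcn was higher at 0 h by 2.32-fold (1.76 to 3.09) and lower at 6 h by 1.21-fold (1.01 to 1.47). Vcan (versican), a large hyaluronan-binding proteoglycan that monocytes and macrophages are known to express, was at 12.5, 11.6, 21.6 and 21.2 in WT and 16.4, 22.0, 41.8 and 49.0 in Arntl-/- cells. Vcan was the higher in Arntl-/- cells at each time, by 1.32-fold (1.04 to 1.67) at 0 h and 2.31-fold (1.86 to 2.89) at 48 h.

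The matricellular proteins are secreted into the matrix and modulate how cells behave there rather than building it. Thbs1 (chr2:117937658-117952869 of mm9), thrombospondin, an activator of latent TGF-beta, was the member with the highest mean level, at 256, 281, 1328 and 644 in WT and 426, 483, 1382 and 1326 in Arntl-/- cells. WT and Arntl-/- libraries were close at 24 h, where both were at their highest, and at 48 h the WT level was lower than at 24 h while the Arntl-/- level was near it. Thbs1 was higher in Arntl-/- cells by 1.66-fold (1.59 to 1.73) at 0 h, 1.04-fold (1.02 to 1.06) at 24 h and 2.06-fold (1.99 to 2.13) at 48 h. Thbs1 and Lox held up to 3.43 and 2.80 reads per base of exon. The authors counted at most 3 tags at a position, and the part of that setting in these values was not tested.

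Sparc (chr11:55207661-55233582 of mm9), a collagen-binding glycoprotein, was at 91.9, 106, 145 and 286 in WT and 58.7, 57.6, 68.3 and 112 in Arntl-/- cells. Postn (chr3:54165029-54194963 of mm9), periostin, a collagen-associated protein of fibroblasts and of bone and tooth ligament, was at 71.1, 67.7, 69.5 and 82.6 in WT and 37.3, 32.6, 33.0 and 35.4 in Arntl-/- cells. The genotypes differed for both at every time but in different shapes, since Sparc was highest at 48 h while the Postn levels of each genotype stayed within a narrow band. The ratio of Sparc went from 1.57-fold (1.38 to 1.78) lower in Arntl-/- cells at 0 h to 2.55-fold (2.26 to 2.88) at 48 h, and that of Postn from 1.91-fold (1.66 to 2.20) to 2.33-fold (1.91 to 2.86).

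Igfbp7, a secreted binder of insulin-like growth factors, was at 64.6, 93.4, 67.7 and 193 in WT and 59.6, 60.7, 80.4 and 176 in Arntl-/- cells. Its level was highest at 48 h in both genotypes, and only the 6 h ratio reached 1.5-fold. Ctgf and Cyr61, secreted proteins of the CCN family that are classic targets of YAP and serum response, are named here after their values were seen, since Cyr61 had the largest change from 0 to 48 h of any member in WT cells. Ctgf was at 32.4, 34.6, 21.7 and 146 in WT and 23.9, 19.9, 20.9 and 49.3 in Arntl-/- cells, so the WT library at 48 h stood well above the other libraries. Cyr61 was at 3.54, 12.2, 7.76 and 45.0 in WT and 5.12, 4.72, 6.79 and 25.3 in Arntl-/- cells, with 15 reads in WT at 0 h. Tnc (tenascin C) and Thbs2 were at 10.9 to 28.4 and 8.76 to 16.8.

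**Figure D3:**
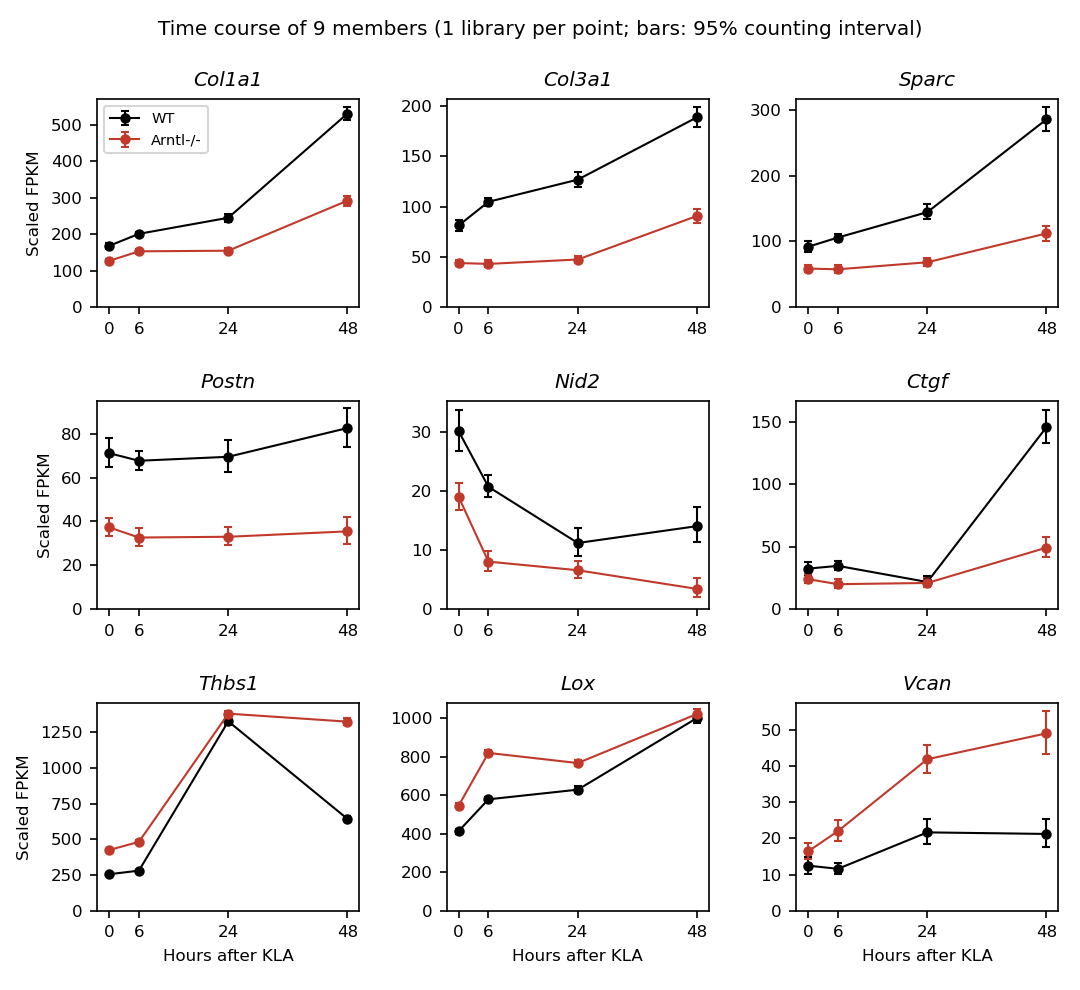
Scaled FPKM (linear axis from 0) against hours after KLA for 9 members, WT in black and Arntl-/- in red, with 1 library per point and bars for the 95% counting interval. In the panels of Col3a1, Sparc, Postn and Nid2 the red line lies below the black at all times, in that of Vcan above, and the lines of Thbs1 meet at 24 h; Ctgf was added after its values were seen.

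The enzymes and chaperones that process collagen include Lox, lysyl oxidase, which cross-links collagen and elastin. Lox was at 413, 578, 628 and 1000.2 in WT and 545, 819, 767 and 1021 in Arntl-/- cells, the member with the next highest mean level after Thbs1. It was higher in Arntl-/- cells by 1.32-fold (1.27 to 1.37) at 0 h and 1.42-fold (1.38 to 1.45) at 6 h, and at 48 h the interval of the ratio included 1 (1.02-fold (0.985 to 1.06)). Its relative Loxl1 was at 4.71 to 21.2, and Pcolce, an enhancer of procollagen cleavage, was at 7.02 to 24.2.

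Serpinh1 (HSP47), the collagen-specific chaperone of the endoplasmic reticulum, was at 30.9, 52.1, 42.1 and 90.6 in WT and 32.3, 33.3, 20.9 and 36.8 in Arntl-/- cells. The genotypes were close at 0 h, and at 48 h Serpinh1 was lower by 2.46-fold (1.96 to 3.12) in Arntl-/- cells, where the level was within 1.14-fold (0.894 to 1.44) of that at 0 h. Aebp1 (chr11:5761869-5772228 of mm9), a collagen-binding carboxypeptidase-like protein, was at 19.1, 22.0, 19.3 and 32.7 in WT and 11.7, 12.4, 10.1 and 13.9 in Arntl-/- cells. Every Arntl-/- library of Aebp1 lay below every WT library, and the ratio went from 1.62-fold (1.29 to 2.05) at 0 h to 2.36-fold (1.78 to 3.16) at 48 h.

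Of the mesenchymal receptors and contractile proteins, Acta2, smooth muscle actin, was at 47.3, 38.6, 31.3 and 109.7 in WT and 25.3, 21.7, 26.1 and 53.1 in Arntl-/- cells. Tagln, an actin-binding protein of smooth muscle and myofibroblasts, was at 42.8, 31.9, 29.4 and 58.5 in WT and 31.3, 23.2, 23.2 and 25.4 in Arntl-/- cells. Both were lower in Arntl-/- cells at each time, and the counting interval reached 1 for both at 24 h. At 48 h the ratios were 2.06-fold (1.72 to 2.49) for Acta2 and 2.30-fold (1.65 to 3.26) for Tagln. The summed level of smooth muscle and pericyte markers was then 36.8 in WT and 17.4 in Arntl-/- cells. At 0, 6 and 24 h this sum was 13.5, 17.2 and 15.0 in WT and 13.1, 13.5 and 11.1 in Arntl-/- cells. The log2 genotype ratios at 48 h of the 3 markers that passed the read filter were split, at -2.84 for Mcam, -0.31 for Mylk and 2.11 for Notch3. The part of such cells in the Acta2 and Tagln ratios was not tested.

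The PDGF receptors bind platelet-derived growth factors on mesenchymal cells. Pdgfra (chr5:75548316-75594229 of mm9) was at 0.876, 3.45, 1.94 and 2.32 in WT and 0.347, 0.609, 1.36 and 2.53 in Arntl-/- cells, from 7 to 109 reads. Pdgfrb was at 6.99, 12.2, 15.0 and 9.42 in WT and 4.44, 9.15, 10.0 and 9.49 in Arntl-/- cells. Each Arntl-/- value of the pair was below WT at 0, 6 and 24 h, and neither differed beyond the counting interval at 48 h, with an Arntl-/- level 1.09-fold (0.563 to 2.12) that of WT for Pdgfra and 1.01-fold (0.705 to 1.44) for Pdgfrb.

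**Figure D4:**
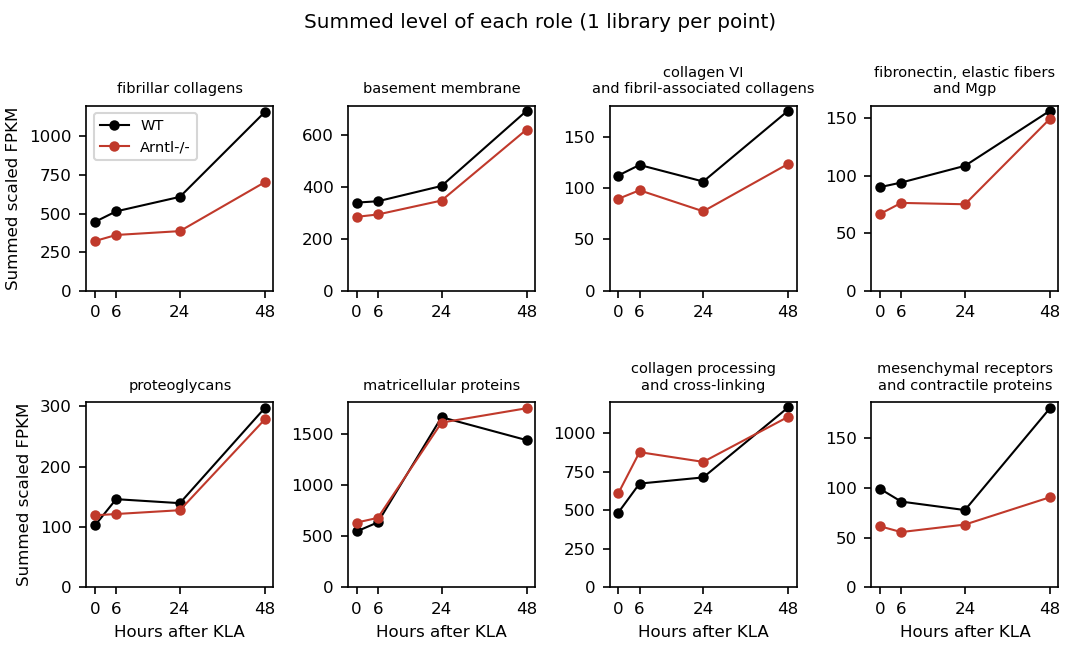
Summed scaled FPKM of the members of each role (linear axes from 0, which differ between panels) against hours after KLA, WT in black and Arntl-/- in red, 1 library per point. The red line lies below the black at all times for the fibrillar collagens, the basement membrane genes, collagen VI with the fibril-associated collagens, the fibronectin and elastic fiber genes and the mesenchymal receptors and contractile proteins, and above it through 24 h for the collagen processing genes, where Lox is the largest term.

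To describe the response to KLA, the libraries at 6, 24 and 48 h were compared with that at 0 h of the same genotype, so the 3 comparisons of a genotype share its 0 h library. The median log2 ratio over the 44 members was 0.21, 0.23 and 1.10 in WT and 0.07, 0.05 and 1.03 in Arntl-/- cells. In WT cells, 10, 14 and 34 members were at least 1.5-fold higher at 6, 24 and 48 h than at 0 h (9.81, 12 and 16.7% of all genes), and 2, 4 and 2 were lower (5.77, 12.8 and 18.4%). In Arntl-/- cells, 5, 7 and 30 were higher (6.23, 10.4 and 18.2% of all genes), and 2, 3 and 2 were lower (7.36, 12.7 and 19.6%). The larger change thus came between 24 and 48 h in both genotypes, in the 2 shallowest libraries, and the part of depth in it was not tested.

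The level at 48 h was the highest of the 4 times for 34 members in WT (33.5% of all genes) and for 35 in Arntl-/- cells (33.5%). In both genotypes 27 members were at least 1.5-fold higher at 48 h than at 0 h (10.4% of all genes), and 1, Nid2, was lower (11.3%). At least 1.5-fold above 0 h at 6, 24 and 48 h in both genotypes were 2 members, Lama4 and Pdgfra, both of which rest on few reads at 0 h (1.02% of all genes), and 0 were below at all these times (0.267%). By role, all 5 fibrillar collagens and all 4 proteoglycans were at least 1.5-fold higher at 48 h in each genotype, as were 6 of 10 basement membrane genes and 3 of 4 fibronectin and elastic fiber genes in each. Of the 4 genes of collagen VI and fibril-associated collagens, 2 were in WT and 0 in Arntl-/- cells, and of the 4 mesenchymal receptors and contractile proteins, 2 were in WT and 3 in Arntl-/- cells. Of the 8 matricellular members, 7 were in WT and 6 in Arntl-/- cells, and of the 5 collagen processing genes, 5 were in WT and 3 in Arntl-/- cells. At the same time the median log2 ratio of the 13 macrophage markers was 0.52 in WT and 0.76 in Arntl-/- cells, with 6 and 9 of them at least 1.5-fold higher and 1 lower in each. The medians from 0 to 48 h were 1.19 in WT and 0.02 in Arntl-/- cells for the 3 smooth muscle and pericyte markers, 0.21 and -0.36 for the 6 further fibroblast markers, and 0.41 and 0.00 for the 4 bone marrow mesenchymal markers. Those of the 5 neutrophil markers were -4.0 and -4.9, with 3 lower and 2 higher in each genotype. The part of these cell types in the members' levels at 48 h was not tested.

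**Figure D5:**
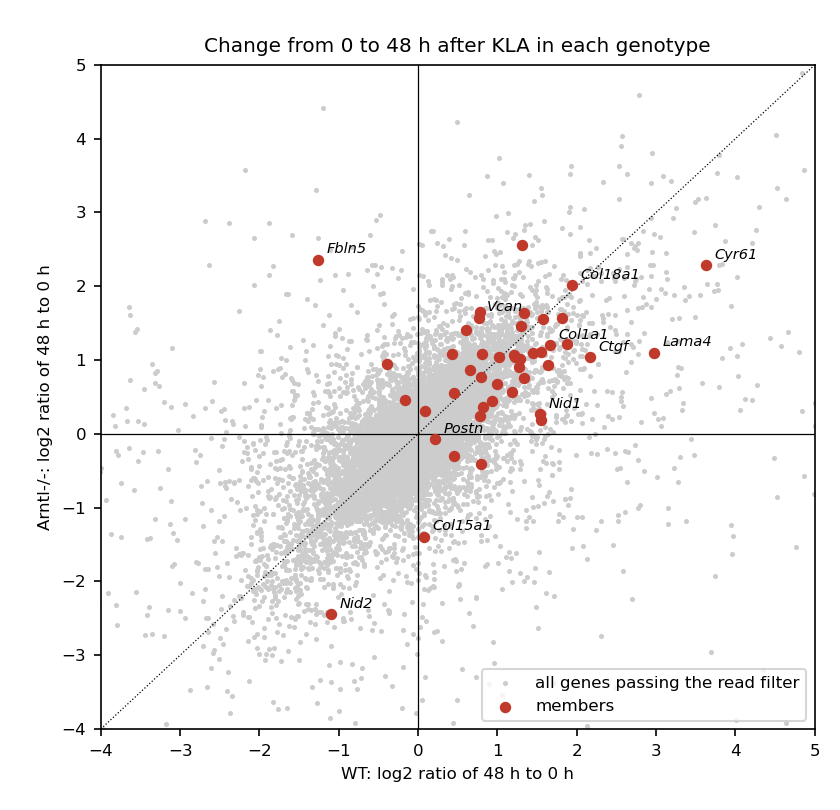
Log2 ratio of 48 h to 0 h in WT (horizontal) and in Arntl-/- cells (vertical) for the 44 members in red and the 12721 genes that passed the read filter in grey, with the line of equal change dotted; grey points outside the axes are not drawn. Most members lie at the upper right, Nid2 in the lower left, and Fbln5 alone is lower in WT and higher in Arntl-/- cells by at least 1.5-fold.

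In size, the changes of single genes varied widely. From 0 to 48 h, Cyr61 was 12.7-fold (7.41 to 23.4) higher in WT and 4.94-fold (3.19 to 7.80) in Arntl-/- cells, Ctgf 4.50-fold (3.76 to 5.42) and 2.06-fold (1.65 to 2.58), and Col18a1 3.85-fold (3.59 to 4.12) and 4.06-fold (3.79 to 4.34). Col1a1 was 3.16-fold (2.98 to 3.35) higher in WT and 2.30-fold (2.15 to 2.46) in Arntl-/- cells, and Sparc 3.11-fold (2.79 to 3.47) and 1.91-fold (1.67 to 2.19). Postn was 1.16-fold (1.01 to 1.34) higher in WT and 1.05-fold (0.863 to 1.29) lower in Arntl-/- cells. These intervals cover counting only, and the differences between the genotypes' changes were not tested.

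The promoters of 6 members are shown because these genes carry the patterns above: Col1a1, Col1a2 and Col3a1 as the most abundant fibrillar collagens, Postn as the most abundant member with every Arntl-/- library below WT, Cyr61 for its change in WT, and Tagln as the member with a CArG box, the site of serum response factor. Each is the 150 bases before the deposited transcript start, read from mm9 on the strand of the gene, with the motif found in capitals. The letters TATAAA are in capitals in the upper 5, and the CArG box in Tagln.
Col1a1 (mm9 chr11:94797434-94797583, plus strand): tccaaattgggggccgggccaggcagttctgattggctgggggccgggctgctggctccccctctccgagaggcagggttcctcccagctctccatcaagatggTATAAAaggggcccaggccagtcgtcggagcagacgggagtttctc
Col1a2 (mm9 chr6:4455547-4455696, plus strand): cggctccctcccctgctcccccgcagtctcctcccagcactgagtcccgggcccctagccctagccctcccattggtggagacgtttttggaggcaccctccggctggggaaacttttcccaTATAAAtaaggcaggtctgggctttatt
Col3a1 (mm9 chr1:45368233-45368382, plus strand): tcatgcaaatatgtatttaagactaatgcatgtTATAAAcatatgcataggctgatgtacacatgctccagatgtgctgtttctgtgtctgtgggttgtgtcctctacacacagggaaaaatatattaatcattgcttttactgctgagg
Postn (mm9 chr3:54164879-54165028, plus strand): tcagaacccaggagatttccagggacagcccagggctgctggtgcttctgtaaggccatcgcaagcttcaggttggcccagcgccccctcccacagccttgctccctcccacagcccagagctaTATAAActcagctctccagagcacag
Cyr61 (mm9 chr3:145312950-145313099, minus strand): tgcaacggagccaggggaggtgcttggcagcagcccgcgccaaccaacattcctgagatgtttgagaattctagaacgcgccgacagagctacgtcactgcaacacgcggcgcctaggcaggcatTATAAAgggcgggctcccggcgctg
Tagln (mm9 chr9:45744142-45744291, minus strand): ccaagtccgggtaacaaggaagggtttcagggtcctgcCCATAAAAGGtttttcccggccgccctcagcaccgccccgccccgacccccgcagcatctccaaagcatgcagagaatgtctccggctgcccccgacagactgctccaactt

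Motifs were searched from 250 bases before to 50 bases after each start. TATAAA, the core of the TATA box, was found on the gene's own strand in 9 of 48 members, or 18.8%, in 8.75% of all 23954 genes with a promoter read and in 4.65% of genes that passed the read filter. The 48 include 4 that did not pass it, of which Mgp held the letters. It began 46 bases before the start in Col1a1, 28 in Col1a2, 26 in Postn, 25 in Cyr61 and 30 in Mgp. In Col3a1, Lama4 and Tnc it lay farther off, 117, 205 and 126 bases before the start. In Ctgf it lay after the start, from base 31. The letters CACGTG, the E-box bound by Bmal1 with its partner Clock, were found on either strand in 0 of 48 members, in 7.75% of all genes and in 9.80% of genes that passed the filter. TAGGTCA, a motif bound by the nuclear receptors RevErb and Ror, was found on either strand in 1 member, Lox, in 2.23% of all genes and in 1.78% of genes that passed, and the CArG box in Tagln, in 1.45% and in 1.19%. TATAAA can lie inside a CArG box, which no member showed. These matches describe letters in a window of 300 bases only.

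Several members lie next to each other in the genome. Col3a1 and Col5a2 are 24.6 kb apart on chromosome 1, Col6a2 and Col6a1 are 85.4 kb apart on chromosome 10, and Dcn and Lum are 47.3 kb apart on the same chromosome, with no gene of the table between the members of any pair. Reads were counted on both strands, so reads of a gene and of an antisense transcript cannot be told apart. The log2 levels of Col3a1 and Col5a2 had a Pearson's r of 0.89 over the 8 libraries, those of Col6a2 and Col6a1 0.71, and those of Dcn and Lum 0.61. All such r values are descriptions over 8 libraries that share genotype and time.

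To see which genes followed the main fibrillar collagens, the log2 level of each gene was correlated with the mean of Col1a1, Col1a2 and Col3a1 over the 8 libraries. The other 41 members that passed the filter had a median r of 0.75, with 17 of them, 41.5%, above 0.8, and all 12718 genes compared had a median of -0.03, with 2.58% above 0.8. The closest were Sparc at 0.98, Fbn1 at 0.97, Col5a2 at 0.96, Fn1 at 0.96 and Bgn at 0.94. The lowest were Nid2 at -0.06, Col15a1 at -0.03, Vcan at 0.08, Fbln5 at 0.20 and Thbs1 at 0.21. The genes outside the list with the highest r were Hdac5 at 0.98, Mrpl39 at 0.97, Akirin2 at 0.96, Zfp941 at 0.96 and Ppfia3 at 0.96, and Hdac5, a histone deacetylase, ranged only from 267 to 328 scaled FPKM.

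Genes of related pathways were described from 3 further lists. Of 17 genes of collagen folding and trimming that passed the filter, which encode prolyl and lysyl hydroxylases, their partners and procollagen proteases, 2, 1, 1 and 1 were at least 1.5-fold higher and 1, 1, 2 and 0 lower in Arntl-/- cells at 0, 6, 24 and 48 h, and at 48 h against 0 h 9 were higher in WT (16.7% of all genes) and 10 in Arntl-/- cells (18.2%). Of 20 genes of TGF-beta ligands, storage proteins, receptors and Smads, 3, 0, 1 and 0 were higher and 1, 2, 4 and 4 lower in Arntl-/- cells at the same times. Of 34 other matrix genes, 16 passed the filter, and 2, 0, 0 and 1 were higher and 4, 7, 5 and 6 lower. For these 3 lists, the shares of all genes were 7.79, 4.33, 8.66 and 11.3% higher and 5.21, 6.61, 6.51 and 9.46% lower. Col8a1, a short-chain collagen of vessel walls and named here after its values were seen, was at 4.57, 3.85, 5.79 and 13.6 in WT and 1.14, 1.25, 1.58 and 2.62 in Arntl-/- cells, so that each Arntl-/- value lay under all WT values, as in 0.684% of all genes.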

How the data were processed

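PolyA RNA-seq of BMDMs, with 1 library for each of 2 genotypes at 4 times after KLA, was analyzed. The ChIP-seq experiments were not used here. The values the authors deposited are FPKM. Before deposit they aligned the read pairs with STAR (build mm9) and used HOMER to count tags over the exons of RefSeq genes without regard to strand, allowing 3 tags at a position and retaining a single transcript for a gene. Totals were set to 10000000 for every library, and exon length was divided out. A table line that held a fragment of another (1 line) was left out, and 4 value columns of other time points were not used.

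The product of FPKM and length was a whole number of reads for 100% of the low values examined (tolerance 0.1 reads), which gave the reads behind each value. Read counts were used to describe depth and for the 95% intervals, which treat reads as independent molecules and cover counting error only, not cultures or mice. Levels were scaled by median-of-ratios size factors from the 8 libraries, and log2 ratios used scaled FPKM plus a pseudocount of 0.1, which understates changes of low genes. Genes with a mean of at least 10 reads over the 8 libraries entered ratios and counts of at least 1.5-fold. A value of 3 or fewer reads was taken as the floor. With 1 library per condition no test was made. The steps were tested on simulated data.

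Values in every library are given for the 3 members with the highest mean level of each role, for members whose genotypes were at least 1.5-fold apart, the same way round, at each of the 4 times, and for members at least 1.5-fold from 0 h in the same direction at 6, 24 and 48 h in both genotypes. Other genes named are Arntl, the 5 genes most like the fibrillar collagens and list genes where a result turns on them. The members, lists and rules were chosen with earlier results of these data known. From the TGF-beta list, 1 gene is not reported here. Alternatives were upper-quartile scaling, no scaling beyond that of the deposited values, a lowess correction for expression level (fraction 0.3), no read filter, a mean of at least 50 reads, a pseudocount of 1, a fold of 2 and, chosen after seeing the data, size factors without WT at 6 h. Promoters were read from the mm9 genome at the deposited starts. Calculations were run in Python 3.11.15 with statsmodels 0.14.6, scipy 1.17.1, pandas 2.3.3 and numpy 2.4.6, and plotted with matplotlib 3.10.9.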

Additional observations from a re-analysis of the deposited data

Results flagged for a closer look

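In 3 cases the change from 0 h to the same later time was at least 1.5-fold in opposite directions in WT and Arntl-/- cells, and in 2 cases the genotype ratio was at least 1.5-fold in opposite directions at different times. None of these 5 differences was tested, and changes from 0 h that turned between times within a genotype were not looked for here. From 0 to 6 h, the log2 ratio of Lum, a small collagen-binding proteoglycan with 12 to 36 reads per library, was -0.59 in WT and 0.70 in Arntl-/- cells. Col15a1, a basement membrane collagen with 6 to 102 reads, had a log2 ratio of 24 h to 0 h of 0.93 in WT and -0.90 in Arntl-/- cells. Fbln5, an elastic fiber protein with 4 to 28 reads, had a log2 ratio of 48 h to 0 h of -1.26 in WT and 2.36 in Arntl-/- cells. Between the genotypes, the log2 ratio of Arntl-/- to WT of Fbln5 was -1.45 at 0 h and 2.17 at 48 h. That of Lama4, with 6 to 83 reads, was 0.74 at 0 h and -1.13 at 48 h.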

How the results depend on the processing

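The genotype medians stayed below 0 at all 4 times under every alternative that could be run. With the values as deposited, all genes together had a median genotype ratio of -0.14 at 6 h, and the members' log2 ratio of Arntl-/- to WT moved from -0.63 to -0.77. The median log2 ratio of 24 h to 0 h in Arntl-/- cells, 0.05, changed sign as deposited, to -0.019, and was 0.12 after the correction for expression level. From 0 to 6 h, the WT median of 0.21 was 0.37 as deposited. The Arntl-/- median of 0.07 was 0.01 as deposited, 0.13 after the level correction and 0.03 with at least 50 reads. After the correction for expression level the 48 h median in Arntl-/- cells was 1.10 in place of 1.03. With a fold of 2, the members lower in Arntl-/- cells at 0, 6, 24 and 48 h were 4, 6, 8 and 12 in place of 13, 23, 18 and 22. Of all genes, 2.17, 2.79, 3.19 and 4.65% were lower by as much. Members higher were 1, 1 and 0 at 0, 6 and 24 h (3.65, 1.30 and 4.30% of all genes). Members above 0 h in WT at 6 and 24 h were 4 and 5 in place of 10 and 14 (4.49 and 5.57%). Members below 0 h in WT at 6 h, 2, were 1 with values as deposited, upper-quartile scaling, at least 50 reads or a pseudocount of 1 (2.96, 5.17, 3.71 and 5.09% of all genes). They were 4 after the level correction (6.10%) and 0 with a fold of 2 (1.39%). Without a read filter, 2 members in place of 1 were higher in Arntl-/- cells at 24 h (13.5% of all genes). Below 0 h in Arntl-/- cells at 6, 24 and 48 h were then 4, 5 and 4 members in place of 2, 3 and 2 (12.8, 17.1 and 22.4% of all genes). Members higher in Arntl-/- cells at 0 h, 4, were 2 with at least 50 reads or a pseudocount of 1 (4.05 and 6.6% of all genes). Those above 0 h in Arntl-/- cells at 6 h, 5, were 2, 3 and 1 with at least 50 reads, a pseudocount of 1 and a fold of 2 (3.54, 5.27 and 2.43%). With at least 50 reads, 1 in place of 2 was below 0 h at 48 h in each genotype (15.97% of all genes in WT and 17.97% in Arntl-/- cells). With a fold of 2, 2 in place of 4 in WT and 1 in place of 3 in Arntl-/- cells were below at 24 h (6.08 and 5.35%). Size factors without WT at 6 h turned no median they could give and moved no count by over 1.5 times, and comparisons with that library were not computed there. No paired test was made, because no test was made at all and the labels pair no replicates, and genotypes were set side by side at each time. With 1 library a condition, none could be left out. Depth limited the 4 members with few reads most.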
